A study of Mus musculus with 8 samples.

Results

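The genes of MHC class II antigen presentation were described in livers of Ames dwarf mice. The set holds 10 genes, namely H2-Aa, H2-Ab1, H2-Eb1, H2-DMa, H2-DMb1, H2-Oa, H2-Ob, Cd74, Ctss and Ciita, of 8251 genes that a probe set of the array named alone. Members were chosen by name: a probe set counted where its annotation gave a single symbol and that symbol was one of the 10. That gave 11 probe sets, 2 for H2-DMa and 1 for each other gene, and the brightest probe set of a gene stands for it. Of the 10 genes, 8 were bright enough to test, with a mean intensity of at least 165.2, and H2-Oa and H2-Ob were not.

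The samples were 8 livers of 8 female mice, and an Affymetrix U74Av2 array was used for each liver. All mice were homozygous for the Ames dwarf mutation (df/df), which leaves the pituitary short of the cells behind prolactin, growth hormone and thyrotropin. All were calorie-restricted, receiving 30% less of a standard pelleted diet than df/df females eating freely, and their age at death was 24 to 26 months. With 1 group, the mutation, the diet and the age are shared by every sample, and no value here measures their effect: the comparisons are between individual mice. The labels name neither the strain background nor the MHC haplotype of the mice. Whole liver was used, and in such bulk samples more cells of a type and more RNA per cell cannot be told apart. Hepatocyte genes were bright in every liver, with Alb, the albumin gene, at 23416.9 to 35342.6.

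MHC class II molecules show peptides from engulfed or membrane proteins to helper T cells. An alpha and a beta chain are assembled in the endoplasmic reticulum with the invariant chain, which blocks the groove and steers the complex to endosomes. There cathepsin S trims the invariant chain, the DM heterodimer exchanges the remaining fragment for peptide, and the DO heterodimer restrains DM. Transcription of these genes depends on the coactivator CIITA, which is recruited by factors bound to the W, X and Y boxes upstream of the genes and is itself induced by interferon gamma. In liver, class II is known chiefly from Kupffer cells and other macrophages, dendritic cells and B cells, with lower levels on sinusoidal endothelium.

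The 7 H2 genes of the set lie together on chromosome 17 in the RefSeq annotation of GRCm38.p6, within 224 kilobases, from 34092379 to 34316674. RefSeq promoter windows, 250 bases before to 50 after each annotated start, matched 7 of the 10 genes (H2-Aa, H2-Eb1, H2-DMa, H2-DMb1, H2-Oa, H2-Ob and Ctss), and H2-DMa had 2 windows. The windows were searched on both strands for the Y box core TGATTGG, and for a pair made of the X box core GNAAC, a spacer of 15 to 40 bases and the Y core on the same strand. The motif letters and the spacer limits were chosen after the windows of the members had been seen. The 110 bases before the start are shown, written 5′ to 3′ on the strand of the gene, for the 5 genes that held the pair, so that the layout they share can be seen. Capitals mark the X core and then the Y core.
H2-Aa: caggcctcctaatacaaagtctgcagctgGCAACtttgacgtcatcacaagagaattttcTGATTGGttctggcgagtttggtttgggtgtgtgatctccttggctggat
H2-Eb1: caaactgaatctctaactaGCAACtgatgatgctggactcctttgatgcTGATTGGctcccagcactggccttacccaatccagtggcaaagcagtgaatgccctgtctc
H2-DMb1: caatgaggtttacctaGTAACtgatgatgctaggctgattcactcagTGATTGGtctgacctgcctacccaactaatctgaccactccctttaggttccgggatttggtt
H2-Oa: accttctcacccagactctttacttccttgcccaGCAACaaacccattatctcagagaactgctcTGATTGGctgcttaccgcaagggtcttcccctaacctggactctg
H2-Ob: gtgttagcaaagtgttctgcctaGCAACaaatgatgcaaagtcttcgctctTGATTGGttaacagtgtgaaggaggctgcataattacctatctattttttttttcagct

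These stretches lie at chr17:34287824-34287933 on the minus strand (H2-Aa) and, on the plus strand, at chr17:34305757-34305866 (H2-Eb1), chr17:34153081-34153190 (H2-DMb1), chr17:34092269-34092378 (H2-Oa) and chr17:34238795-34238904 (H2-Ob). The spacer between the cores was 26 bases in H2-Aa, H2-DMb1 and H2-Oa, 25 in H2-Eb1 and 23 in H2-Ob, and the Y core began 45 to 63 bases before the start. Of all 32851 windows in the table, 2568 (7.82%) held the Y core and 235 (0.715%) held the pair, against 5 of the 8 member windows (5 of the 7 member genes) for either. Neither motif was found in the H2-DMa windows, which precede 2 starts inside the annotated gene and do not cover its first base at 34119693. The Ctss window held neither motif but did hold the interferon-stimulated response element core (GAAA, any 2 bases, GAAA), which occurred in 1131 windows (3.44%) and in no other member, and its letters are shown for that reason in capitals.
Ctss: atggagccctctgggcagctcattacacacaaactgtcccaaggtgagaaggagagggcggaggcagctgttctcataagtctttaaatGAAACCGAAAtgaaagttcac

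That stretch lies at chr3:95526676-95526785 on the plus strand, and the element begins 21 bases before the start. A match is a description of letters and shows no binding.

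**Figure D1:**
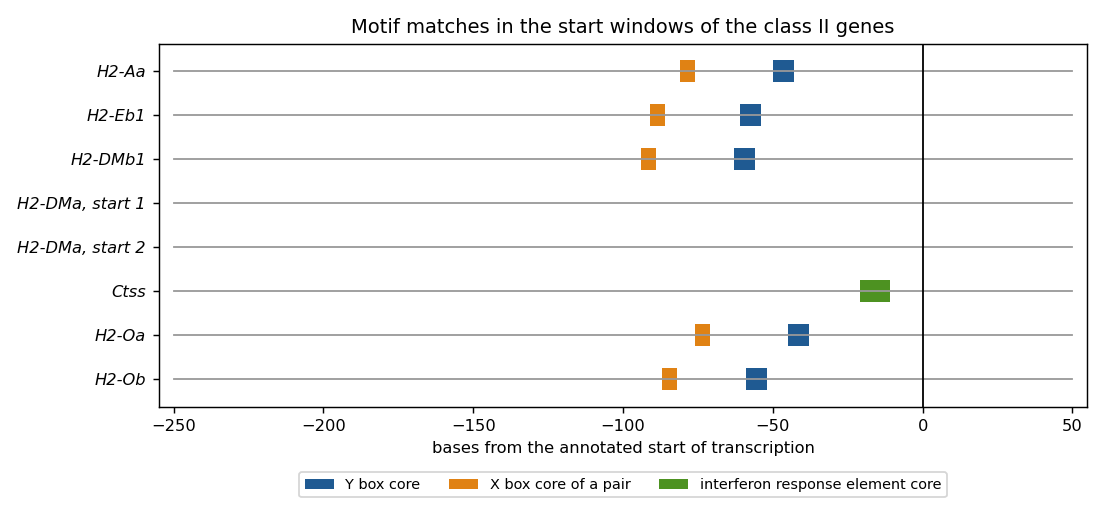
Positions of the motif cores in the promoter windows of the class II genes. The horizontal axis gives bases from the annotated start of transcription (vertical line at 0), and each grey line is 1 window. Blue bars are Y cores, orange bars the X cores of a pair and the green bar the interferon response element core of Ctss. The 5 pairs share their order, with the Y core starting 45 to 63 bases before the start.

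The 3 tested class II chains differed between mice over more than 10-fold, and the same mice were high for each. H2-Aa, the alpha chain of the I-A molecule, had an intensity of 12571.8 in mouse 6, 7185.2 in mouse 8, 2903.6 in mouse 3, 1571.9 in mouse 1, 1192.4 in mouse 2, 534.1 in mouse 4, 490.2 in mouse 5, down to 478.3 in mouse 7. Its partner H2-Ab1, the I-A beta chain, had 3352.2 in mouse 6, 2826.0 in mouse 8, 905.0 in mouse 3, 563.5 in mouse 1, 478.5 in mouse 2, 315.3 in mouse 4, 296.5 in mouse 7, down to 236.0 in mouse 5. H2-Eb1, the beta chain of the I-E molecule, had 7490.8 in mouse 6, 4846.8 in mouse 8, 1560.3 in mouse 3, 1240.6 in mouse 1, 996.3 in mouse 2, 751.0 in mouse 4, 628.7 in mouse 5, down to 615.6 in mouse 7. Mice 6 and 8 were far above the other 6 for all 3 chains, mouse 3 came next, and mice 4, 5 and 7 were the lowest. The mean was 3366 ± 4344 for H2-Aa, 1122 ± 1240 for H2-Ab1 and 2266 ± 2530 for H2-Eb1 (SD, n = 8), so that for each the SD exceeded the mean. The highest mouse was 26.3-fold above the lowest for H2-Aa, 14.2-fold for H2-Ab1 and 12.2-fold for H2-Eb1. Mouse 6 set part of this: without it the log2 range was 3.91 against 4.72 for H2-Aa and 2.98 against 3.61 for H2-Eb1.

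The alpha chain that pairs with H2-Eb1 is encoded by H2-Ea, which in the C57BL/6J reference is a pseudogene through a promoter deletion and is functional in other strains. Its probe set read 83.5 in mouse 6, 70.3 in mouse 8, 61.2 in mouse 3 and 17.5 to 41.2 in the other 5 mice. It was too dim to test, with 4 mice under the floor of 37.2 (the 25th percentile of all intensities, below which values have no order), although the 3 brightest mice were again 6, 8 and 3. H2-Eb2, a relative of H2-Eb1, reached at most 38.9 and was under the floor in 7 of 8 mice.

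Cd74, the invariant chain that escorts every class II pair, covered a smaller multiple than most of the chains. It had an intensity of 19641.6 in mouse 6, 15486.9 in mouse 8, 11572.5 in mouse 3, 5957.5 in mouse 1, 3971.2 in mouse 2, 2499.4 in mouse 4, 2207.4 in mouse 5, down to 1845.4 in mouse 7. The 8 mice were spread along this range with no wide break, the widest gap between neighbours being 0.281 of the log2 range. The mean was 7898 ± 6828 (SD, n = 8), and the highest mouse was 10.6-fold above the lowest.

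The peptide editor DM followed the same order of mice in both chains. H2-DMa, its alpha chain, had an intensity of 4043.2 in mouse 6, 2578.9 in mouse 8, 1011.1 in mouse 3, 696.3 in mouse 2, 590.1 in mouse 1, 370.1 in mouse 4, 332.5 in mouse 7, down to 247.0 in mouse 5, a mean of 1234 ± 1362 (SD, n = 8) and a 16.4-fold range. The second, dimmer probe set of H2-DMa, which by its name (ending in f) shares probes with related transcripts, read 961.1 in mouse 6 and 464.5 in mouse 8 against 57.0 to 87.8 in the other 6 mice, a 16.9-fold range. H2-DMb1, a DM beta chain, had 2314.8 in mouse 6, 1139.2 in mouse 8, 520.9 in mouse 3, 302.7 in mouse 2, 271.2 in mouse 1, 198.8 in mouse 4, 190.5 in mouse 7, down to 79.3 in mouse 5. Mice 6 and 8 again stood highest, and the 3 lowest were again mice 4, 5 and 7. The H2-DMb1 range of 29.2-fold, the widest of the tested members, depended on mice 5 and 6: it was 4.87 on the log2 scale with all mice, 3.60 without mouse 5 and 3.85 without mouse 6. The H2-DMa log2 range was 4.03 with all mice and 3.38 without mouse 6.

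H2-DMb1 and H2-DMb2 are near-identical neighbours, and the array splits them poorly. The H2-DMb1 probe set carries a name ending in g, which marks probes shared with another probe set, so its value is uncertain within the pair. A probe set annotated to both genes together, and so no member, read 983.6 in mouse 6, 517.5 in mouse 8 and at most 111.8 in the other 6. The probe set named for H2-DMb2 alone was dim, at 34.4 to 181.1, with mouse 6 highest.

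The chains of DO, the inhibitor of DM that is known mainly from B cells, were dim and showed no such pattern. H2-Oa, the alpha chain, had an intensity of 214.4 in mouse 6, 184.4 in mouse 3, 138.8 in mouse 1, 112.2 in mouse 8 and 75 to 109.1 in the others, a mean of 126.1 ± 50.3 (SD, n = 8) and a 2.86-fold range. H2-Ob, the beta chain, had 92.9 in mouse 7, 80.2 in mouse 1, 79.1 in mouse 5, 65.7 in mouse 8, down to 64.9 in mouse 2, while mouse 3 (29.5), mouse 6 (12.0) and mouse 4 (6.6) were under the floor. H2-Ob thus read lowest in 3 mice that included mouse 6, the highest for the DM chains. Neither DO chain passed the brightness filter, so no test was made, although both hold the X and Y pair shown above.

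Ctss encodes cathepsin S, the cysteine protease that removes the invariant chain in professional antigen presenting cells. Its intensity was 8371.8 in mouse 6, 5132.0 in mouse 8, 1927.6 in mouse 3, 1603.2 in mouse 2, 1342.7 in mouse 1, 923.7 in mouse 5, 745.9 in mouse 7, down to 742.2 in mouse 4, with a mean of 2599 ± 2737 (SD, n = 8). The range was 11.3-fold, with mice 6 and 8 apart from the rest, and on the log2 scale it was 3.50 with all mice and 2.79 without mouse 6.

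Ciita, the regulator of the set, was dim and moved over the smallest multiple of the 8 tested members. Its intensity was 332.8 in mouse 8, 306.9 in mouse 6, 189.4 in mouse 2, 181.2 in mouse 3, 144.6 in mouse 1, 117.5 in mouse 5, 110.8 in mouse 4, down to 90.5 in mouse 7. The mean was 184.2 ± 90.5 (SD, n = 8) and the range 3.68-fold. It was the only tested member in which mouse 8 rather than mouse 6 was highest, and the same 3 mice (4, 5 and 7) were lowest.

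**Figure D2:**
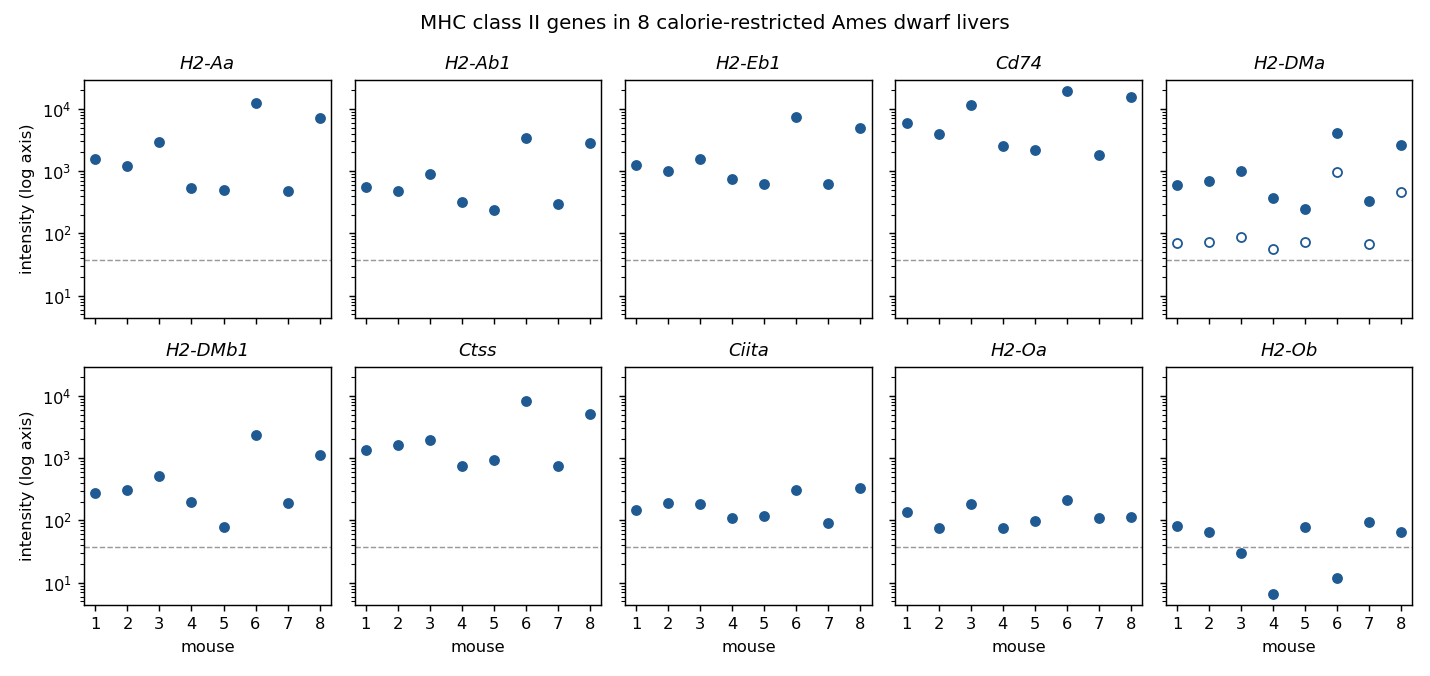
Intensity of each class II gene in each of the 8 mice, on a log axis, 1 panel per gene. Filled points are the brightest probe set, open points the second probe set of H2-DMa, and the dashed line is the floor of 37.2. Mice 6 and 8 are the highest in the 8 tested genes, while H2-Oa lies between 75 and 214.4 and H2-Ob crosses the floor.

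Over the 8 tested members, the range between mice was at least 4-fold in 7, against 5.46% of all 4869 tested genes. The median range was 13.1-fold for the members and 1.61-fold for all tested genes, and the median SD of log2 intensity was 1.39 for the members and 0.23 for all tested genes. Mice 6 and 8 were the 2 highest in 8 of 8 members, against 12.1% of all tested genes. Mice 4, 5 and 7 were the 3 lowest in 8 of 8 members, against 5.5% of all tested genes. The brightness filter had a part in both counts. Ciita was under it without mouse 8, and H2-Oa and H2-Ob, which it left out, showed neither order of mice. Among the 4869 genes ordered by SD of log2 intensity, H2-Aa stood at place 13, H2-DMb1 at 28, Ctss at 56 and Ciita at 267.

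Each probe set's variance between mice was tested against the variance that limma's trend gives at its brightness, with a one-sided F test. No member passed after Benjamini-Hochberg adjustment over all 6265 probe sets, and neither did any other probe set (0%), the lowest adjusted p on the array being 0.265. Unadjusted p was under 0.05 for 8 of the 9 tested member probe sets, against 6.38% (400) of all tested probe sets. The second H2-DMa probe set, 1 of these 8, repeats a gene already counted. It passed the brightness filter of 165.2 only through mice 6 and 8, with 57.0 to 87.8 in the other mice. H2-Aa had the lowest p of the members, 0.000518 (limma F test, adjusted p = 0.308, SD of 1.81 against a trend of 0.20 on the log2 scale). The limma adjusted p was 0.32 for Cd74 (SD 1.34 against 0.21) and 0.968 for Ciita (SD 0.68 against 0.39), the highest of the members. These p-values measure only the spread between 8 single arrays. The trend and its 3.8 prior degrees of freedom came from these same probe sets, so each p places a probe set among the others. With so few degrees of freedom even the F of 81.9 for H2-Aa did not pass. The lack of calls therefore says little of the class II spread.

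**Figure D3:**
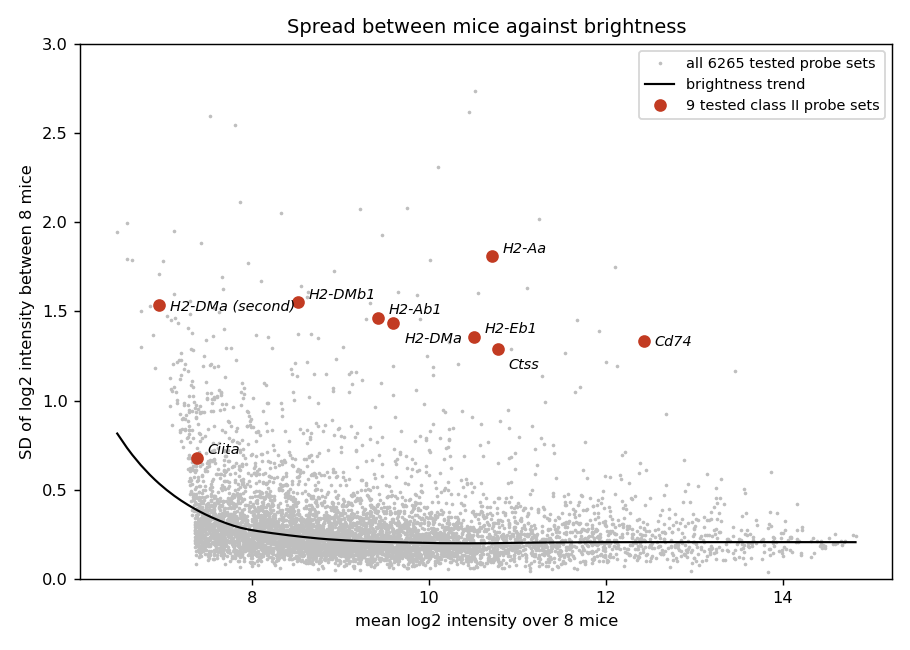
SD of log2 intensity between the 8 mice (vertical axis) against mean log2 intensity (horizontal axis). Grey points are the 6265 tested probe sets, the line is the brightness trend and the red points are the 9 tested class II probe sets. All class II points but Ciita have an SD of at least 1.29, while the median of all tested genes is 0.23.

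The members moved together from mouse to mouse. H2-Aa and H2-Eb1 placed the 8 mice in exactly the order given by Cd74 (Spearman's rho = 1 for both). Pearson's r of log2 intensity with Cd74 was 0.982 for H2-Aa, with an exact two-sided permutation p of 2.48e-05, the smallest that the 40320 pairings of 8 mice allow. The other r values were 0.957 for H2-Ab1 (rho 0.976, exact permutation p = 9.92e-05), 0.938 for H2-Eb1 (p = 2.48e-05, exact), 0.949 for H2-DMa (rho 0.952, p = 0.000248, exact), 0.921 for H2-DMb1 (rho 0.952, p = 0.000298, exact), 0.93 for Ctss (rho 0.905, p = 0.000248, exact) and 0.919 for Ciita (rho 0.881, p = 0.00184, exact). Permutation p of rho was 4.96e-05 for H2-Aa and H2-Eb1 and 0.000397 to 0.00724 for the other 5. Adjusted over the relations of all 4868 other tested genes with Cd74, the exact permutation p for r was 0.0195 for H2-Aa, H2-Ab1, H2-Eb1, H2-DMa and Ctss, 0.0209 for H2-DMb1 and 0.0461 for Ciita. All 7 members thus passed with a positive r, against 2.79% of all tested genes, and a negative r passed in 1.58%. Ciita was under the brightness filter without mouse 8, so its place among the 7 rested on that mouse.

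Without the 2 mice farthest from the Cd74 median, mice 6 and 8, r with Cd74 stayed positive. It was 0.988 for H2-Aa, 0.97 for H2-Ab1, 0.986 for H2-Eb1, 0.913 for H2-DMa, 0.811 for H2-DMb1, 0.897 for Ctss and 0.807 for Ciita. No p was computed without these 2 mice. The arrays fell into 2 sets by their spike-in control, the bacteriophage transcript CreX, which read 15553.8 to 17571.4 on the arrays of mice 1 to 4 and 11360.7 to 12178.9 on those of mice 5 to 8. Cd74 spanned 4.63-fold within the first set and 10.6-fold within the second, and H2-Aa 5.44-fold and 26.3-fold. These 2 genes were the widest in the first set, where the other tested members spanned 1.71-fold (Ciita) to 2.87-fold (H2-Ab1). In the second set the others spanned 3.68-fold (Ciita) to 29.2-fold (H2-DMb1). Mice 6 and 8, the 2 highest, were both in the second set. Mouse 3 was above mouse 4 in the first set and mouse 6 above mouse 7 in the second. With the array set as a block, r with Cd74 was 0.923 for Ciita to 0.99 for H2-Aa, and the block ended the call for Ciita but not for the other 6 (exact permutation over 576 pairings, adjusted over these 7 relations). The array of mouse 5 stood apart by RNA quality: its ratio of 3′ to 5′ signal was 2.67 for Gapdh, against 0.794 to 1.07 in the others, and 40.7 for pyruvate carboxylase, against 2.64 to 9.17. Its part in the low class II values of mouse 5 was not tested.

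Members did not keep a fixed ratio to Cd74. The log2 range between mice exceeded that of Cd74 by 1.30 for H2-Aa and by 1.46 for H2-DMb1, was 0.42 above it for H2-Ab1, 0.62 for H2-DMa, 0.19 for H2-Eb1 and 0.08 for Ctss, and differed from it by -1.53 for Ciita. The ratio of H2-Aa to Cd74, as a log2 difference centred over mice, was 1.07 in mouse 6 and 0.61 in mouse 8, and lay between -0.51 and -0.02 in the other 6. In mouse 3, the third highest for Cd74, all 7 members were low relative to Cd74, from -0.28 for H2-Aa to -0.97 for H2-Eb1, and so they were in mouse 1, from -0.20 for H2-Aa to -0.56 for H2-DMb1. The Ciita ratio ran the other way in the top pair, at -0.95 in mouse 6 and -0.49 in mouse 8. These ratios show unequal changes in intensity between probe sets, and no test was made of them.

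**Figure D4:**
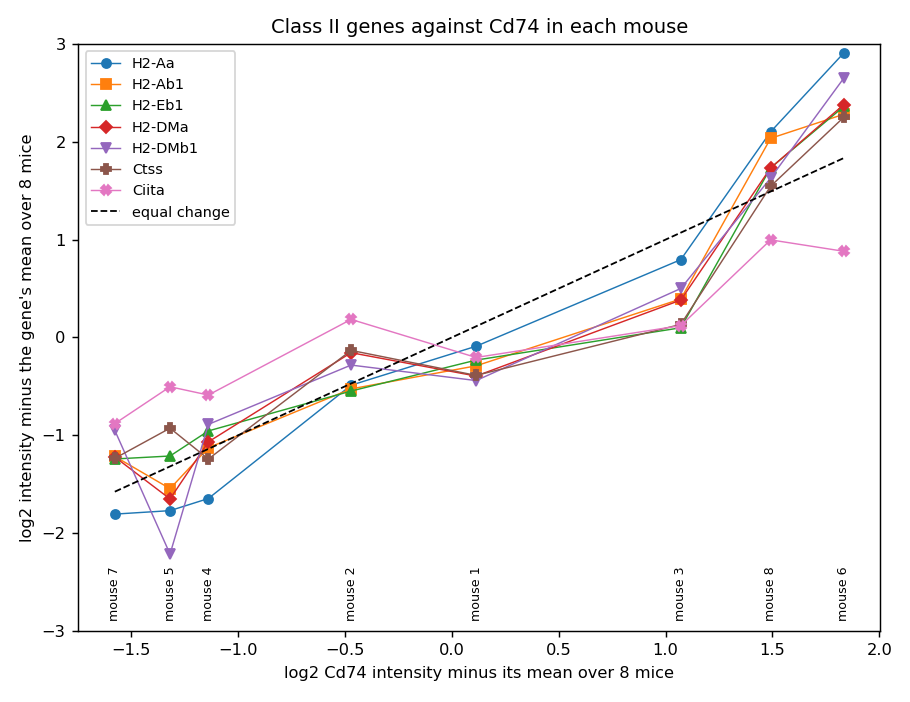
Log2 intensity of 7 class II genes in each mouse, minus the gene's mean (vertical axis), against log2 Cd74 minus its mean (horizontal axis). Each line joins the 8 mice of 1 gene and the dashed line marks a change equal to that of Cd74. H2-Aa is steeper than the dashed line and Ciita flatter, and in mice 1 and 3 all 7 genes lie below it.

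Other proteins of the class II route split into a varying few and a steady majority. Of 24 listed symbols 19 were measured and 14 tested, and the range reached 4-fold in 2 of 14, against 5.46% of all tested genes. The median range was 1.65-fold against 1.61-fold over all tested genes. The 2 were Ctsc, the cathepsin C that activates granule proteases, with 2649.3 in mouse 6, 1624.2 in mouse 8 and 228.6 to 580.9 in the other 6 (11.6-fold), and Ifi30, the lysosomal thiol reductase that unfolds antigens, with 919.3 in mouse 6, 427.8 in mouse 8 and 146.4 to 255.6 in the other 6 (6.28-fold). Lgmn, the asparagine endopeptidase that starts invariant chain cleavage, followed with 2059.2 in mouse 6 and 1219.1 in mouse 8 against 522.6 to 909.0 (3.94-fold). These 3 of 14 were the genes with an unadjusted p under 0.05 in limma's F test, against 6.38% of all tested probe sets. None passed after adjustment (lowest adjusted p 0.343, Ctsc). By contrast Ctsl, a cathepsin of thymic epithelium and many other cells, lay between 4905.4 and 7188.0 (1.47-fold), and Ctsh between 3287.9 and 3890.6 (1.18-fold).

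The brightest probe sets of the 4 tested factors of the X and Y boxes (Rfxank, Nfya, Nfyb and Nfyc) spanned 1.32-fold to 1.9-fold. Creb1, a factor of the same list, was too dim to test, at 23.8 in mouse 6, its lowest, and at most 82.9. Rfxank, a subunit of the RFX complex of the X box, read 290.7 in mouse 6, its lowest mouse, and at most 398.0 (1.37-fold). Nfyb, a subunit of the Y box factor NF-Y, read 514.7 to 679.8 (1.32-fold), and its partner Nfyc read 779.7 in mouse 6, again the lowest, and up to 1206.3 in mouse 5. Nfya, the third NF-Y subunit, was instead highest in mouse 6, at 288.1, and lowest in mouse 4, at 151.7 (1.9-fold). A second, dimmer probe set of Nfyc read 33.5 in mouse 3 to 375.8 in mouse 7, a 10.1-fold range (limma F test, adjusted p = 0.73). None of the 4 tested X and Y box genes (Rfxank, Nfya, Nfyb and Nfyc) had an unadjusted p under 0.05 by limma's F test in its brightest probe set.

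Genes that induce class II or restrain its induction varied with the members. Of 16 listed genes 14 were measured and 8 tested. The range reached 4-fold in 5 of 8, against 5.46% of all tested genes, with a median of 4.15-fold. Irf1, an interferon-induced factor that acts on the Ciita promoter, had 3401.5 in mouse 6, 1635.4 in mouse 8, 1223.5 in mouse 3 and 590.9 to 1163.5 in the other 5 (5.76-fold). Socs1, the feedback inhibitor of JAK signalling, had 1179.3 in mouse 6, 565.8 in mouse 8 and 177.0 to 378.7 in the others (6.66-fold), and Irf8 and Spi1, factors of macrophages and dendritic cells, spanned 4.19-fold and 4.12-fold. These 4 of 8 had an unadjusted p under 0.05, against 6.38% of all tested probe sets (limma F test, adjusted p = 0.507 for Irf1, 0.572 for Socs1, 0.698 for Irf8 and 0.774 for Spi1). Jak1, a kinase of the interferon receptors, ranged only from 1045.9 to 1347.0. Interferon gamma itself (Ifng) read 53.6 in mouse 6 and lay under the floor in the other 7 mice. The mean of the 8 tested genes, each centred over mice, correlated with Cd74 at r = 0.919 (rho 0.929, exact two-sided permutation p = 9.92e-05, adjusted over 12 lists p = 0.00119, r = 0.918 without mice 6 and 8).

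Of genes that meet class II at the T cell contact, 7 of 9 were measured and Cd4 alone was tested. Cd4, the coreceptor for class II, read 344.8 in mouse 3, its highest, and 90.1 in mouse 4, with mouse 6 (234.9) and mouse 8 (259.1) between them, an order unlike that of the members. Cd40, Cd80 and Cd86, costimulatory molecules of antigen presenting cells, reached at most 125.4 and were under the floor in 4, 4 and 5 of 8 mice. Cd40 was brightest in mice 3, 6 and 8 (125.4, 115.6 and 89.9), the top mice for the members, though all of its values were dim. Ctla4 was under the floor in all 8.

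The class I route divided in a similar way. Of 16 listed genes 13 were measured and 12 tested. The range reached 4-fold in 6 of 12, against 5.46% of all tested genes, with a median of 4.09-fold. Mice 6 and 8 were the 2 highest in 8 of 12, against 12.1% of all tested genes. The immunoproteasome subunit Psmb8 had 6130.4 in mouse 6, 4834.6 in mouse 8 and 332.0 to 2765.9 in the others (18.5-fold), and Psmb9 had 4031.3 in mouse 6, 2835.9 in mouse 8 and 311.7 to 1717.8 in the others (12.9-fold). The peptide transporter genes Tap1 and Tap2 spanned 7-fold and 7.06-fold with the same mice on top. The brightest probe sets of the chains they load had smaller ranges: H2-K1 lay between 10495.3 and 20811.7 (1.98-fold), H2-D1 between 9942.7 and 17172.6 (1.73-fold) and B2m, the class I light chain, between 9995.5 and 16728.6 (1.67-fold). H2-K1 and H2-D1 are read by probe sets shared within the class I family, so each is uncertain within it. Dimmer probe sets of these genes had wider ranges, 3.07-fold and 8.42-fold for H2-K1 and 2.57-fold and 2.6-fold for H2-D1, each with mouse 6 highest. Unadjusted p was under 0.05 in 7 of 12, against 6.38% of all tested probe sets, and no gene passed after adjustment (limma F test, lowest adjusted p 0.308). The list's centred mean correlated with Cd74 at r = 0.949 (rho 0.952, exact permutation p = 0.00179, adjusted p = 0.00429, r = 0.878 without mice 6 and 8).

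Macrophage markers moved with class II. Of 17 markers 15 were measured, 14 were tested and none was under the floor in all mice. The range reached 4-fold in 11 of 14, against 5.46% of all tested genes, with a median of 6.56-fold. Mice 6 and 8 were the 2 highest in 11 of 14, against 12.1% of all tested genes. Adgre1, counted in both (mean 201.4, with 563.5 in mouse 6), was under the brightness filter of 165.2 without mouse 6. Summed over the measured markers, intensity was 35734.0 in mouse 6, 22317.4 in mouse 8, 12708.2 in mouse 2, 11318.7 in mouse 3, 8710.8 in mouse 1, 6897.1 in mouse 7, 6682.3 in mouse 5, down to 6680.0 in mouse 4. Mpeg1, a macrophage pore-forming protein, had 6915.2 in mouse 6, 5725.6 in mouse 8 and 683.1 to 2747.1 in the others (10.1-fold), and Lyz2, the lysozyme of myeloid cells, had 5784.3 in mouse 6, 3805.0 in mouse 8 and 328.5 to 1091.0 in the others (17.6-fold). Clec4f, a lectin of resident Kupffer cells, did not follow them: its highest mouse was 2 (1361.8), with 1221.1 in mouse 6 and 747.0 in mouse 8 (2.6-fold range). Mrc1, the mannose receptor, did not either, with 571.1 in mouse 4, its highest, 455.8 in mouse 6 and 170.3 in mouse 8, its lowest. No macrophage gene passed limma's F test after adjustment (lowest adjusted p 0.308). Unadjusted p was under 0.05 in 11 of 14, against 6.38% of all tested probe sets. The list correlated with Cd74 at r = 0.878 (rho 0.929, exact permutation p = 0.00117, adjusted p = 0.0035, r = 0.756 without mice 6 and 8).

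Markers of dendritic cells covered a smaller range, and their relation to Cd74 did not pass. Of 14 dendritic cell markers 9 were measured and 6 tested, none spanned 4-fold, and the summed intensity was 2981.8 in mouse 6 and 3006.9 in mouse 8, within the 2628.7 to 3746.8 of the others. Itgax, the CD11c integrin also found on macrophages, was highest in mouse 8 (590.2) and mouse 6 (558.8) and lowest in mouse 7 (240.6). Fscn1, the dendritic actin bundler, was lowest in those 2 mice (751.5 in mouse 8 and 859.8 in mouse 6). Ccl17 was under the floor in all mice. The list correlated with Cd74 at r = 0.751 (rho 0.667, exact permutation p = 0.0475, adjusted p = 0.0713, r = 0.894 without mice 6 and 8), and adjusted p was 0.0427 without mouse 6 and 0.0491 without mouse 1.

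B cell markers were at 1967.0 in mouse 6 and 2061.0 in mouse 8 in summed intensity, within the 1897.3 to 2389.8 of the others. Of 14 markers 12 were measured and 5 tested, none spanned 4-fold, Cd72 and Cr2 were under the floor in all mice, and Ighm, the brightest, was at 318.9 to 581.0. Their r with Cd74 was -0.367 (exact permutation p = 0.373, adjusted p = 0.407). Plasma cell markers (5 of 7 measured, 3 tested, none under the floor in all mice) summed to 3224.4 in mouse 6 and 3286.8 in mouse 8, within 2524.2 to 3959.5 for the others, with r = -0.587 (exact permutation p = 0.132, adjusted p = 0.158). The plasma cell relation was stronger under 2 alternatives. Without mouse 5 r was -0.845 (exact permutation, adjusted p = 0.0337), and scaled to a common median it was -0.791 (adjusted p = 0.0282). Sinusoidal endothelium markers, of which 10 of 12 were measured and none was under the floor in all mice, summed to 4502.3 in mouse 6 and 2900.2 in mouse 8, the lowest, against 3346.1 to 5299.2 in the others. Their r was -0.657 (exact permutation p = 0.0728, adjusted p = 0.0971), and without mouse 6 it was -0.835 (adjusted p = 0.0335).

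T and NK cell markers could be read in few genes, and the brightest probe sets of the 3 tested did not share 1 order of mice. Of 18 markers 15 were measured and 3 tested, and Cd3d, Cd2, Cd8a, Cd8b1 and Prf1 were under the floor in all 8 mice. The summed intensity was 3944.0 in mouse 6, 3409.4 in mouse 8 and 515.1 to 1796.1 in the other 6. Ccl5, a chemokine of activated T cells and also of macrophages, read 2069.0 in mouse 6, 1684.9 in mouse 8, 534.3 in mouse 3, 387.2 in mouse 1 and was under the floor in the other 4. Ltb, a lymphotoxin chain, was likewise highest in mouse 8 (824.4) and mouse 6 (650.5). The brightest probe set of Zap70, a T cell receptor kinase, was highest in mouse 3 (369.0) and mouse 4 (344.6), with 269.2 in mouse 6 and 268.3 in mouse 8. A dimmer tested probe set of Zap70 was instead highest in mouse 8 (301.9) and mouse 6 (266.0), and an untested one reached at most 77.3, in mouse 6. The mean of the 3 tested genes, by their brightest probe sets, correlated with Cd74 at r = 0.972 (rho 0.929, exact permutation p = 0.000298, adjusted p = 0.00179, r = 0.937 without mice 6 and 8).

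Neutrophil markers summed to 3048.3 in mouse 6, the highest, and 1409.7 to 1854.3 in the other 7 (10 of 10 markers measured, none under the floor in all mice). S100a8, a calcium-binding protein of neutrophils, read 556.3 in mouse 6 and 78.8 to 145.9 in the others. The high sum was not shared by every marker: Ly6g was highest in mouse 8 (167.0), Elane in mouse 3 (245.2) and Camp in mouse 2 (202.1). The r with Cd74 was 0.719 over the 2 tested genes, Csf3r and S100a8 (rho 0.786, exact permutation p = 0.00761, adjusted p = 0.0152, r = 0.598 without mice 6 and 8). It missed the threshold without mouse 2 (adjusted p = 0.0647), mouse 4 (0.0874) or mouse 5 (0.0583). S100a8, with a mean of 169.9, was tested only through mouse 6. Without mouse 6 it was under the brightness filter of 165.2, which left too few tested genes for an r.

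Hepatocyte markers (8 of 10 measured, all tested) summed to 94626.9 in mouse 6, the lowest, and 99128.0 in mouse 8, against 97254.2 to 129567.3 in the others, with r = 0.167 (exact permutation p = 0.682, adjusted p = 0.682). Erythrocyte markers (4 of 7 measured) summed to 6822.9 in mouse 6 and 5836.2 in mouse 8, against 6692.2 to 12892.6 in the others. Their r was -0.855 over the 2 tested genes, Hba-a1 and Alas2 (rho -0.905, exact permutation p = 0.0145, adjusted p = 0.0248, r = -0.615 without mice 6 and 8). That call was lost on leaving out mouse 2, 4, 5, 6, 7 or 8, with an adjusted p of 0.0503 (without mouse 8) to 0.0857 (without mouse 4).

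In all, 7 of 12 lists passed at an adjusted p of 0.05 by the exact permutation test, and with the array set as a block, which leaves 576 pairings, 0 of 12 did, at an r of 0.874 for the accessory list, 0.939 for the inducers, 0.948 for class I, 0.897 for macrophages and 0.971 for T and NK cells. The part of any marker list in the class II values was not tested. The accessory list itself had r = 0.833 with Cd74 (rho 0.905, exact permutation p = 0.00102, adjusted p = 0.0035, r = 0.713 without mice 6 and 8).

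**Figure D5:**
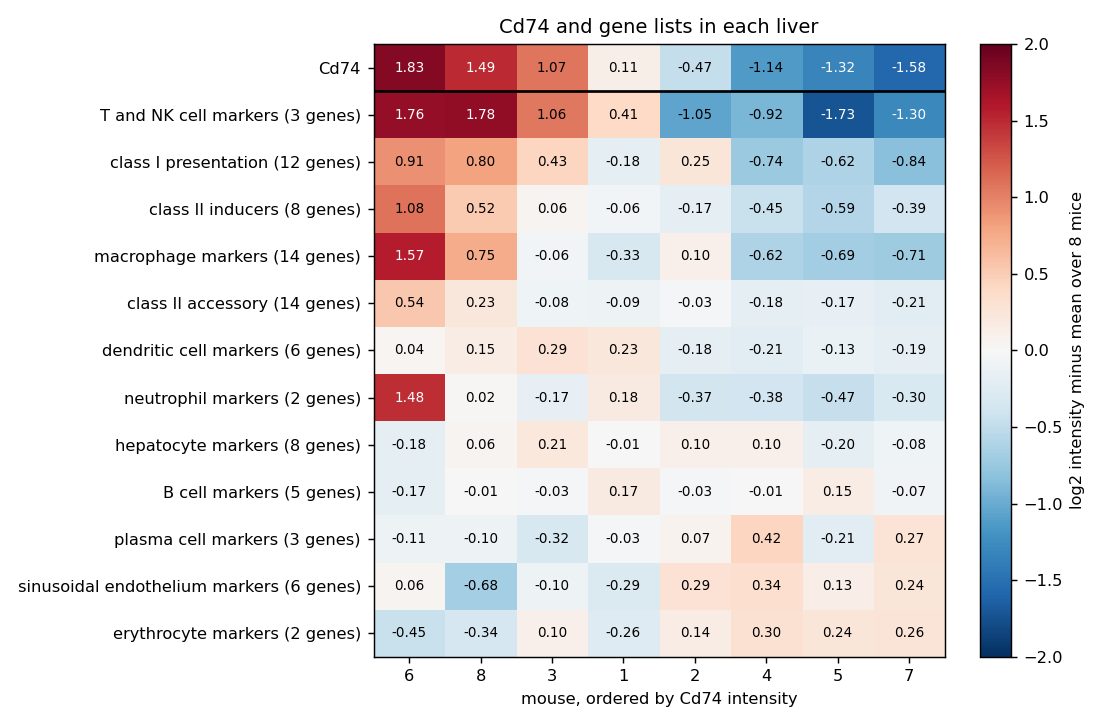
Cd74 and the mean of each gene list in each liver, as log2 intensity minus the mean over 8 mice (numbers and colours), with mice ordered by Cd74 from left to right. Class I presentation, the inducers, macrophage markers and T and NK cell markers are high in mice 6 and 8. B cell, dendritic cell and hepatocyte markers stay within 0.3 of 0 in every mouse.

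The genes outside the set whose pattern over the 8 mice was most like that of Cd74 were named by Pearson's r of log2 intensity, among tested genes with an SD of at least 0.5. They were Orm1, an acute-phase plasma protein (r = 0.989, rho 0.976), Gbp3, an interferon-induced GTPase (0.985), Icam1, an adhesion molecule (0.982), Ccr2, a monocyte chemokine receptor (0.982), Cxcl9, an interferon-induced chemokine (0.982), Ubd, a ubiquitin-like modifier (0.981), AW112010 (0.977), Lcn2, a siderophore-binding protein (0.976), Tap1 (0.974) and Irgm2, an interferon-induced GTPase (0.971). Ubd had an intensity of 7460.4 in mouse 8, 7064.5 in mouse 6, 3661.9 in mouse 3, 366.6 in mouse 1 and 32.1 to 110.6 in the other 4, the widest range of the 10. Orm1, which hepatocytes secrete, had 10840.2 in mouse 8, 10488.2 in mouse 6 and 4329.4 in mouse 7, only a 2.5-fold range. Mouse 8 and not mouse 6 was highest in Orm1, Ccr2, Cxcl9, Ubd, AW112010 and Lcn2, unlike 7 of the 8 members.

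The most opposite patterns were those of Retsat, a retinol saturase (r = -0.953), Acot1, an acyl-CoA thioesterase (-0.938), Elovl6, a fatty acid elongase (-0.936), Cyp4a14, a fatty acid hydroxylase (-0.909), and Gas1, a growth arrest protein of the cell surface (-0.904). Cyp4a14 had 760.7 in mouse 6, 989.9 in mouse 8, 3572.0 in mouse 3 and 5802.9 to 8973.3 in the other 5. Likeness over 8 mice of 1 condition, on 2 array sets, is a description of these livers, and says nothing of shared function.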

How the data were processed

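Liver RNA of 8 mice was hybridised to 1 Affymetrix U74Av2 array each, per the labels. The authors deposited 1 linear intensity per probe set and array (12488 probe sets), already scaled: the mean without the lowest and highest 2% was 500.4 on every array. The sources used here do not name the software that summarised the probes. Here, intensities were raised to a floor of 37.2 and taken to log2, and the deposited values were otherwise kept. Control probe sets (66) and probe sets with a mean under 165.2 (the median of all values) were left out of tests, leaving 6265 probe sets and 4869 genes. Of all probe sets 10855 had 1 symbol, 396 had several and 1237 had none, and all 11 member probe sets gave the same symbol in RefSeq.

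The members, the 13 gene lists and the tests were chosen with earlier results of these data known. Named genes are all members, the listed pathway genes, per marker list the brightest tested gene and the one with the widest range, and the 10 genes most like and 5 most unlike Cd74 in r. Others (Clec4f, Mrc1, Ltb, Zap70, Ly6g, Elane, Camp, markers under the floor, and genes whose mouse stood apart) were named after their values were seen. Of these, Fcer2a (B cell) spanned 3.11-fold, Igha (plasma cell) 2.43-fold, Tek (endothelium) 4.92-fold and Hnf4a (hepatocyte) 4.92-fold, and the brightest were Xbp1, Eng and Csf3r. Variance was tested with limma 3.58.1 in R 4.3.3 (robust prior, 3.8 prior degrees of freedom), and relations over mice with exact two-sided permutation tests in Python 3.11.15 and numpy 2.4.6. The tests were tried on simulated data. Benjamini-Hochberg adjustment ran over all probe sets, over 4868 genes, or over 12 lists.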

Additional observations from a re-analysis of the deposited data

Results flagged for a closer look

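In 118 results, each a gene or list mean over the 8 mice, a single mouse was compared with the others by the share of the range that separates it from its nearest neighbour. In 8 results that share was above Dixon's 95% critical value for 8 samples, which chance exceeds in about 1 in 20. None of the 8 is a class II member.

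Mouse 6 stood apart in Cst3, the cysteine protease inhibitor cystatin C (6423.6 against 3670.9 to 4773.5 in the others), S100a8 (556.3 against 78.8 to 145.9), the neutrophil marker mean (1.482 against -0.467 to 0.182, log2 relative to the mean over mice) and Alas2, the erythroid heme enzyme (809.6 against 1054.8 to 1298.5). Mouse 5 stood apart, always as the lowest, in B2m (9995.5 against 13262.3 to 16728.6), Pdia3, a chaperone of the class I loading complex (980.4 against 1567.0 to 2347.7), Fgb, the fibrinogen beta chain (6094.6 against 8537.5 to 11027.5), and Hnf4a, a liver transcription factor (265.9 against 702.5 to 1308.2). Mouse 5 is the array with the 3′ to 5′ ratio of 2.67 for Gapdh, and the part of that ratio in these 4 values was not tested.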

How the results depend on the processing

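Alternatives were log2 of intensity plus 32, quantile normalization, scaling to a common median, the mean over a gene's probe sets, probe sets with shared probes left out, other filters, another prior and each mouse left out. The array set as a block was added after seeing the data. No paired analysis was possible because the samples form 1 group. No probe set passed limma's F test after adjustment under any of the 17 alternatives (0 calls with each mouse left out in turn), with 204 to 1317 at an unadjusted p under 0.05, against 400. The range of the members moved by less than 1 SD in 110 of 110 comparisons. That margin is wide: the H2-DMb1 log2 range counted as unmoved at 3.60 without mouse 5, against 4.87. Leaving out a mouse that is neither highest nor lowest cannot change a range, so many of these comparisons could not move. A range of at least 4-fold was found in 6 to 7 members, the 6 because H2-DMb1 has only a probe set with shared probes, and in 7 with any mouse left out. Of the 7 relations of members to Cd74, 6 to 7 passed when adjusted over these 7. Without mouse 8 Ciita was under the filter, and with the array set as a block it missed the threshold at r = 0.923.

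Of 12 lists, 7 passed, 5 to 8 with a mouse left out and 0 with the array set as a block. Without mouse 6 the neutrophil list had too few tested genes for an r. Over all 274 comparisons of relations, 247 kept their direction and side of the threshold, 18 lost the call, 5 gained one and 4 changed sign. Those 4 were the B cell list with no filter (r = 0.031) and the hepatocyte list scaled to a common median (r = -0.265), without mouse 3 (r = -0.035) and without mouse 5 (r = -0.068, the lowest with a mouse left out, the highest being 0.614). The cause was not tested. H2-Oa and H2-Ob were too dim to test.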
